A study of Mus musculus with 2 samples.

Results

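The genes described here encode complex I of the respiratory chain and the factors that assemble it. They were taken by name: every row of the deposited gene table that was typed protein_coding and had a symbol starting with Nduf, without Ndufa4 and Ndufa4l2. This gave 44 of 54680 loci, of which 36 encode subunits (13 named Ndufa or Ndufab, 10 Ndufb, 2 Ndufc, 8 Ndufs and 3 Ndufv) and 8 encode assembly factors named Ndufaf. RNA was sequenced from CT26, a mouse colon cancer cell line. One group, CT26shSetdb1, carried a lentiviral short hairpin against Setdb1, a histone H3 lysine 9 methyltransferase, and the other, CT26shCtrl, carried lentivirus with the empty knockdown vector. Both were grown in RPMI 1640 with 10% serum at 37 degrees and 5% CO2 and collected at day 6; the labels call the hairpin cells differentiated and the control genotype wild type. There was 1 library in each of the 2 groups, so no difference below has a replicate check, and each describes these libraries rather than the conditions. The labels do not say whether the hairpin cells were 1 clone or whether the empty vector expressed any hairpin.

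Complex I, NADH:ubiquinone oxidoreductase, is the entry point of electrons from NADH into the respiratory chain of the inner mitochondrial membrane. Its peripheral arm holds the N module, where NADH is oxidised at a flavin, and the Q module, where electrons leave a chain of iron-sulfur clusters for ubiquinone. Its membrane arm pumps protons and is built around subunits encoded by mitochondrial DNA. Core subunits carry out the catalysis, and accessory subunits surround and stabilise them. Assembly factors help to join the modules and are absent from the finished enzyme.

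The control library held 18421604 reads and the knockdown library 19045830, recovered as whole numbers from the deposited FPKM values, which divide fragments by gene model length and by 1 depth used for both libraries. Setdb1 had 1340 reads with the empty vector and 317 with the Setdb1 hairpin; its FPKM was 23.7% of the control value. Of 10 colon epithelial markers, 3 reached 1 FPKM, the keratins Krt18, Krt19 and Krt20, and Epcam, Cdh1 and Cdx1 had no reads in either library. The summed FPKM of the 10 was 43.2 with the empty vector and 128 with the Setdb1 hairpin, and these keratins set most of it. The 4 mesenchymal markers summed to 1204 and 1452 FPKM. Of 6 leukocyte markers only Cd68 reached 1 FPKM, and it set most of their sum, 11.3 FPKM with the empty vector and 101 with the Setdb1 hairpin, while Cd3e and Adgre1 had no reads and Ptprc had 0 and 4. The 3 endothelial markers had no reads. The part of the differing marker levels in the results below was not tested, and in bulk RNA fewer cells of a type and less RNA per cell cannot be told apart.

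As a whole the complex I genes were near the middle of the transcriptome, and 2 members stood out. All 44 members reached 1 FPKM, the filter for counts, in at least 1 library. The level of a member is given in FPKM. Its difference is the log2 of the quotient of (FPKM + 1), hairpin over empty vector, which makes differences of low genes look smaller than they are. The read ratio given with an interval is the ratio of the reads, each relative to its library's total. Its 95% exact Clopper-Pearson interval holds the error of counting alone: no molecular identifiers are named, so PCR copies of a molecule cannot be told from separate molecules. Of the 44 members, 26 were higher with the Setdb1 hairpin and 18 lower, beside 49.6% of all 10671 genes at the filter that were higher. The median log2 ratio was 0.09, with quartiles of -0.09 and 0.48, and that of all genes was -0.00039, with quartiles of -0.36 and 0.38. A difference of at least 2-fold was found for 2 members, Ndufv3 and Ndufaf3, beside 11.7% of all genes. Both were higher, a direction that 6.81% of all genes took at this fold, and 0 members were at least 2-fold lower, beside 4.85% of all genes. At 1.5-fold, 5 members were higher and 2 lower, where the shares of all genes were 16.9% and 14.3%. The summed reads of the 44 members were 54843 with the empty vector and 59782 with the Setdb1 hairpin, a read ratio of 1.05 (1.04 to 1.07).

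**Figure D1:**
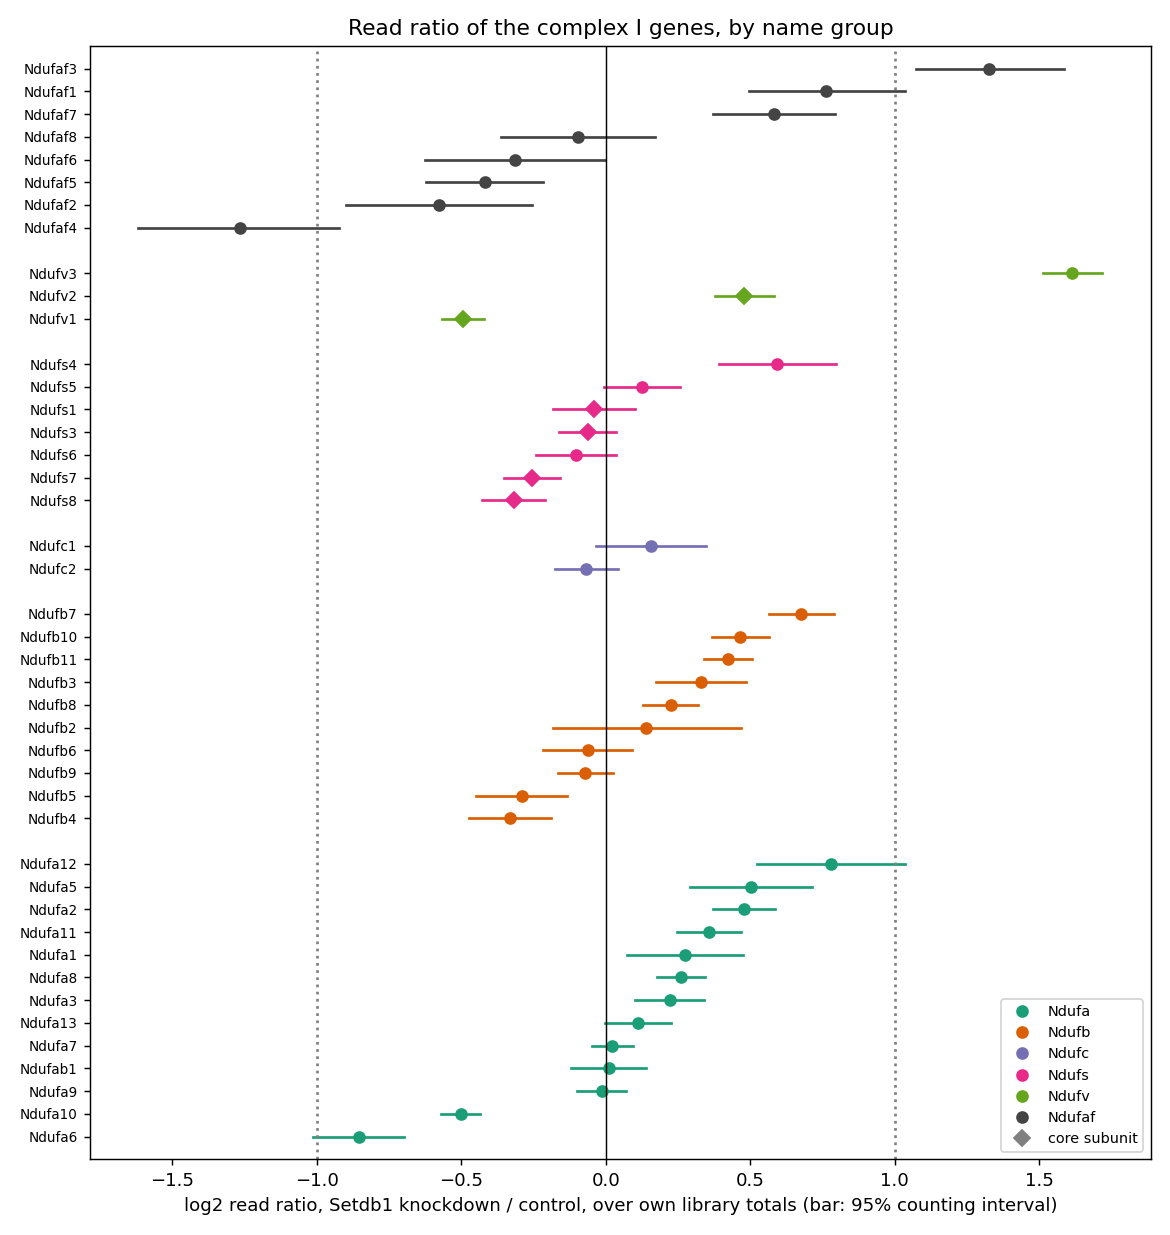
Read ratio of the complex I genes, with 1 gene not shown, knockdown over control relative to the library totals, on a log2 axis; points are genes grouped by name, diamonds are core subunits, bars are 95% counting intervals and dotted lines mark 2-fold. Ndufv3, at a read ratio of 3.06, and Ndufaf3, at 2.51, lie beyond the right dotted line with their whole bars, and Ndufaf4, at 0.416, lies beyond the left one with part of its bar inside.

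The 7 nuclear core subunits hold the flavin, the iron-sulfur clusters and the ubiquinone site, and 5 of them were lower with the Setdb1 hairpin. Their median log2 ratio was -0.02, and that of the 29 accessory subunits was 0.19, of which 21 were higher and 8 lower. Under upper-quartile scaling or scaling to the libraries' own totals, 6 of the 7 were lower and 20 of the 29 higher, and after correction for gene length 5 and 19. Ndufv1, which binds NADH and the flavin, was at 75.7 FPKM with the empty vector and 55.6 FPKM with the Setdb1 hairpin, -0.44 on the log2 scale with a read ratio of 0.711 (0.675 to 0.747). Ndufv2, its iron-sulfur partner, was at 32.4 and 46.7 FPKM, 0.51 on the log2 scale with a read ratio of 1.39 (1.30 to 1.5). These partners of the flavoprotein part thus differed in opposite directions by more than counting error.

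Among the core subunits named Ndufs, Ndufs8 and Ndufs7 were the lowest. Ndufs8, which holds iron-sulfur clusters next to the membrane arm, had 1477 reads with the empty vector and 1224 with the Setdb1 hairpin (log2 ratio -0.27). Ndufs7, the carrier of the last cluster before ubiquinone, had 1881 and 1631 reads (log2 ratio -0.20). Their counting intervals, 0.742 to 0.865 and 0.784 to 0.897, were below 1. Ndufs3, a subunit of the Q module, was at 41.3 FPKM with the empty vector and 40.9 FPKM with the Setdb1 hairpin (log2 ratio -0.01). The interval of its read ratio, 0.895 to 1.03, included 1. Ndufs1, the largest iron-sulfur subunit, was at 5.41 and 5.44 FPKM, a log2 ratio of 0.01 that was below 0 under both of those scalings. Its gene model overlaps Eef1b2 on the other strand, which had 24538 and 17471 reads, and the strand setting of the counting is not given in the sources used here.

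Accessory subunits of the N module included the highest and the lowest ratios of all subunits. Ndufv3 (ENSMUSG00000024038, GRCm38 chromosome 17, 31520115 to 31531326, plus strand) encodes a small accessory subunit next to the flavin-binding pair and is known to make a long and a short protein by alternative splicing. It was at 21.8 FPKM (1015 reads) with the empty vector and 68.9 FPKM (3215 reads) with the Setdb1 hairpin. On the log2 scale this was 1.62, with a read ratio of 3.06 (2.85 to 3.29), the highest of the 44 members. No locus of the table with reads overlaps it and no other locus shares its protein match. The isoforms cannot be separated in values per gene. Ndufa6 (chromosome 15, 82350140 to 82354322, minus strand), a LYR-motif subunit, was lowest of the subunits, at 26.6 FPKM with the empty vector and 15.2 FPKM with the Setdb1 hairpin, -0.77 on the log2 scale with a read ratio of 0.553 (0.495 to 0.617).

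The remaining accessory subunits of the N module were mostly higher with the Setdb1 hairpin. Ndufs4, a subunit on the surface of the peripheral arm, had 332 reads with the empty vector and 518 with the Setdb1 hairpin, a log2 ratio of 0.57. Ndufa2, a thioredoxin-fold subunit, had a log2 ratio of 0.52, Ndufa7 of 0.07 and the zinc-binding Ndufs6 of -0.05. Ndufa12 had a log2 ratio of 0.74, a value that is taken up below with its copy at another locus. Over the 10 members of the N module, 7 were higher and the median was 0.29; with loci of the same protein added, a comparison chosen after the values were seen, 6 were higher and the median was 0.038. The Q module, with 6 members, had 2 higher and a median of -0.02. Its highest member was Ndufa5, an accessory subunit, at 16.0 FPKM with the empty vector and 23.5 FPKM with the Setdb1 hairpin (log2 ratio 0.52), and Ndufa9, which binds NADPH, had a log2 ratio of 0.03. Sources differ on the module of a few subunits, and Ndufa6 was counted here in the N module and Ndufa9 in the Q module.

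In the membrane arm, the part next to the peripheral arm had 7 of 9 members higher and the far part 7 of 11, with medians of 0.19 and 0.11. Ndufa10, a subunit of the nucleoside kinase fold, was the lowest member near the joint, with 4298 reads with the empty vector and 3137 with the Setdb1 hairpin. This was -0.45 on the log2 scale, with a read ratio of 0.706 (0.674 to 0.739). Ndufa8, an accessory subunit of the intermembrane side, was at 131 and 162 FPKM (log2 ratio 0.31). Ndufa11 had a log2 ratio of 0.40, Ndufa1 of 0.32, Ndufa3 of 0.26 and Ndufa13 of 0.16; Ndufa13 is also known as the cell death regulator GRIM-19. Ndufs5 was at 55.5 and 62.6 FPKM (log2 ratio 0.17). The Ndufc pair lay close to 0, with 429 and 494 reads for Ndufc1 (log2 ratio 0.19) and 1409 and 1391 for Ndufc2 (log2 ratio -0.02).

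The Ndufb subunits line the far part of the membrane arm, and 6 of the 10 were higher. The highest were Ndufb7 and Ndufb10, cysteine-rich proteins of its intermembrane face. Ndufb7 was at 12.1 FPKM (1028 reads) with the empty vector and 20.1 FPKM (1699 reads) with the Setdb1 hairpin, 0.68 on the log2 scale with a read ratio of 1.60 (1.48 to 1.73). Ndufb10 was at 61.4 and 87.7 FPKM (log2 ratio 0.51), and Ndufb11 at 119 and 165 FPKM (log2 ratio 0.47). The lowest were Ndufb4, with 901 reads with the empty vector and 741 with the Setdb1 hairpin (log2 ratio -0.27), and Ndufb5, with 725 and 613 (log2 ratio -0.21). Ndufb3 and Ndufb8 had log2 ratios of 0.37 and 0.27, and Ndufb6 and Ndufb9 of -0.01 and -0.02. Ndufab1, the mitochondrial acyl carrier protein, also serves fatty acid synthesis and had a log2 ratio of 0.05. Ndufb2 had the lowest mean FPKM of the members, at 1.42 and 1.62 FPKM, and its read ratio of 1.10 had an interval of 0.880 to 1.38.

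The assembly factors were spread more widely than the subunits as a whole, but about as widely as all genes. The standard deviation of the log2 ratios was 0.68 over the 8 factors, 0.42 over the 36 subunits and 1.03 over the 3 named Ndufv. It was 0.70 over all 10671 genes at the filter. For assembly factors without Nduf names it was 0.30 over the 13 of complex I and 0.37 over the 25 of complexes II to V. Counting error was also larger here, with a median half-width of the log2 interval of 0.27, beside 0.11 for Ndufa. Of the 8, 3 were higher and 5 lower. Their median was -0.14 and their mean 0.08, and the median was 0.25 for the 6 that reached 5 FPKM, so the group had no single direction. Ndufaf3 and Ndufaf4, partners that bind each other and build the early Q module, were at opposite ends. Ndufaf3 (ENSMUSG00000070283, chromosome 9, 108565537 to 108567434, minus strand) was at 5.24 FPKM (178 reads) with the empty vector and 13.6 FPKM (462 reads) with the Setdb1 hairpin, 1.23 on the log2 scale with a read ratio of 2.51 (2.11 to 3.0). Ndufaf4 (ENSMUSG00000028261, chromosome 4, 24898083 to 24905001, plus strand) was at 3.22 FPKM (235 reads) and 1.38 FPKM (101 reads), -0.82 on the log2 scale with a read ratio of 0.416 (0.326 to 0.527). Ndufaf4 was thus at 43.0% of its control FPKM but not counted as 2-fold lower on the log2(FPKM + 1) scale; with a pseudocount of 0.1 its log2 ratio was -1.16 and it was counted. The model of Ndufaf3 overlaps Impdh2 on the other strand, which had 5895 reads with the empty vector and 4432 with the Setdb1 hairpin and so differed in the other direction (log2 ratio -0.41).

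The other factors act at separate steps. Ndufaf1 belongs to the complex that assembles the membrane arm and had 180 reads with the empty vector and 316 with the Setdb1 hairpin (log2 ratio 0.73, read ratio 1.70, 1.41 to 2.05). Among its partners in that complex, which do not carry Nduf names, log2 ratios were 0.15 for Ecsit, -0.04 for Acad9 and 0.37 for Tmem126b. Tmem126b was low, at 0.70 FPKM with the empty vector and 1.19 FPKM with the Setdb1 hairpin. Tmem186, also without an Nduf name, had a log2 ratio of 0.01 and Timmdc1 of -0.31, and whether they belong to the complex of Ndufaf1 was not considered here. Ndufaf7, a protein methyltransferase of the early steps, had 309 and 478 reads (log2 ratio 0.54). Lower members were Ndufaf5, which hydroxylates an arginine of Ndufs7 (459 and 355 reads, log2 ratio -0.34), and Ndufaf2, a relative of Ndufa12 that acts when the N module is attached (199 and 138 reads, log2 ratio -0.39). Ndufaf6 had a log2 ratio of -0.23. Ndufaf8, a stabiliser of Ndufaf5, was at 15.4 and 14.9 FPKM, and the interval of its read ratio, 0.777 to 1.12, included 1.

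The start regions of the 2 members called at 2-fold and of the member with the lowest ratio are shown because these genes carry the ends of the distribution. The sequences are RefSeq's on GRCm38.p6, read 5′ to 3′ on the gene's strand, cut to the stretch upstream of the start that no annotated exon covers; capitals mark a match to the NRF1 motif given below.
Ndufv3 (chr17:31519981-31520114, plus strand): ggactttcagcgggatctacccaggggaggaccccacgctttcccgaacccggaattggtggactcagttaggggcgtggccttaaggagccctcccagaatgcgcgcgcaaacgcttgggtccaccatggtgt
Ndufaf3 (chr9:108567437-108567532, minus strand): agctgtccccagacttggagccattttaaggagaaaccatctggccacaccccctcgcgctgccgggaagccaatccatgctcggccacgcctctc
Ndufaf4 (chr4:24897833-24898082, plus strand): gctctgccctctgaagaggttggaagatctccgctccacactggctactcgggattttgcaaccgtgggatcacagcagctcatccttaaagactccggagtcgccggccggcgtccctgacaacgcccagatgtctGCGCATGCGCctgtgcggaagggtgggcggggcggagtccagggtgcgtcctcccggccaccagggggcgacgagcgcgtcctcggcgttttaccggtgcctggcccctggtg
The match upstream of Ndufaf4 begins 113 bases before the start. The Ndufv3 and Ndufaf3 stretches hold no match to any of the 3 motifs searched, which says only that these letters are not in these stretches.

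NRF1, the ETS factor GABP and YY1 are transcription factors known to bind the promoters of many respiratory chain genes. Promoter windows of 250 bases before to 50 after the start were found in the RefSeq table for 39 members, and both strands were searched. The NRF1 letters were those of the match at Ndufaf4, GCGCATGCGC, with any base at the fifth position; the ETS letters were CCGGAAG and the YY1 letters AAGATGGC, and none of the 3 contains another. The NRF1 letters were in windows of 9 members (23.1%) and in 4.6% of all 32851 windows, or 7.17% of 17492 protein-coding genes. The ETS letters were in 6 members (15.4%), beside 8.86% of all windows and 12.9% of protein-coding genes, and the YY1 letters in 8 members (20.5%), beside 2.75% and 3.57%. Members with an NRF1 match were both higher (4) and lower (5) with the Setdb1 hairpin and included the 2 lowest of the 44, with a median log2 ratio of -0.05 against 0.18 for the members without one. For the ETS letters these medians were -0.01 and 0.17, and for the YY1 letters 0.11 and 0.16. The NRF1 matches of the 2 lowest and the 2 highest of these 9 members are shown with 10 bases on each side, the motif in capitals.
Ndufaf4 (chr4:24897960-24897989, plus strand): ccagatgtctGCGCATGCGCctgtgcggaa
Ndufa6 (chr15:82354249-82354278, minus strand): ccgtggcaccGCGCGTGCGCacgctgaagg
Ndufa11 (chr17:56717692-56717721, plus strand): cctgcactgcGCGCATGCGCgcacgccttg
Ndufa5 (chr6:24527697-24527726, minus strand): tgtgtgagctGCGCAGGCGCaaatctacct
Counted from the RefSeq starts, the match at Ndufa6 begins 24 bases after the start and the other 3 lie before it. The deposited model of Ndufa5 (24518666 to 24528013) starts further upstream and contains the match. The same motif thus stood in genes at a log2 ratio of -0.82 and -0.77 and in genes at 0.40 and 0.52. Among the factors themselves, Nrf1 had a log2 ratio of -0.09, Gabpa of -0.50, Gabpb1 of 0.33 and Yy1 of 0.06.

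Several members have near-identical copies elsewhere in the genome, and 1 of these altered a member's result. Among the deposited loci, 25 members shared their protein match with at least 1 other locus, up to 28 loci for Ndufa1, none of those with reads. For 10 members such loci held reads, but not all of these loci are copies. For Ndufa9 it was the overlapping antisense locus 1700018A23Rik, and for Ndufs1 the overlapping lincRNA Ino80dos. The largest case was Ndufa12 (chromosome 10, 94198720 to 94221443, plus strand), an accessory subunit of the N module. Its own model had 198 reads with the empty vector and 351 with the Setdb1 hairpin, a read ratio of 1.71 (1.44 to 2.05). The processed pseudogene Gm15920 (chromosome 5, 130188395 to 130188796) had 1278 and 1105 reads. With both added up, the reads were 1476 and 1456, the read ratio was 0.954 (0.887 to 1.03) and the log2 ratio moved from 0.74 to -0.02. Of the 435 coding bases of Ndufa12, 399 aligned to the pseudogene in the GENCODE M21 transcripts, with 2 mismatches. A stretch of 150 coding bases is shown for both because it shows how few letters separate them; capitals mark the 1 mismatch, A135G, counted from the first coding base of Ndufa12 with the base of Ndufa12 first.
Ndufa12: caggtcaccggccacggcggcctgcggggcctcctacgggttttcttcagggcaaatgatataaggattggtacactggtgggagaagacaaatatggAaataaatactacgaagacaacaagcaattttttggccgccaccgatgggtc
Gm15920: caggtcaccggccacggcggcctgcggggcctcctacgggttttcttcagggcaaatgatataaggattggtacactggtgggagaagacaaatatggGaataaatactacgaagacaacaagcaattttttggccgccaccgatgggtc
How reads with more than 1 match were counted is not given in the sources used here, so the reads of these loci are reported as uncertain.

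**Figure D2:**
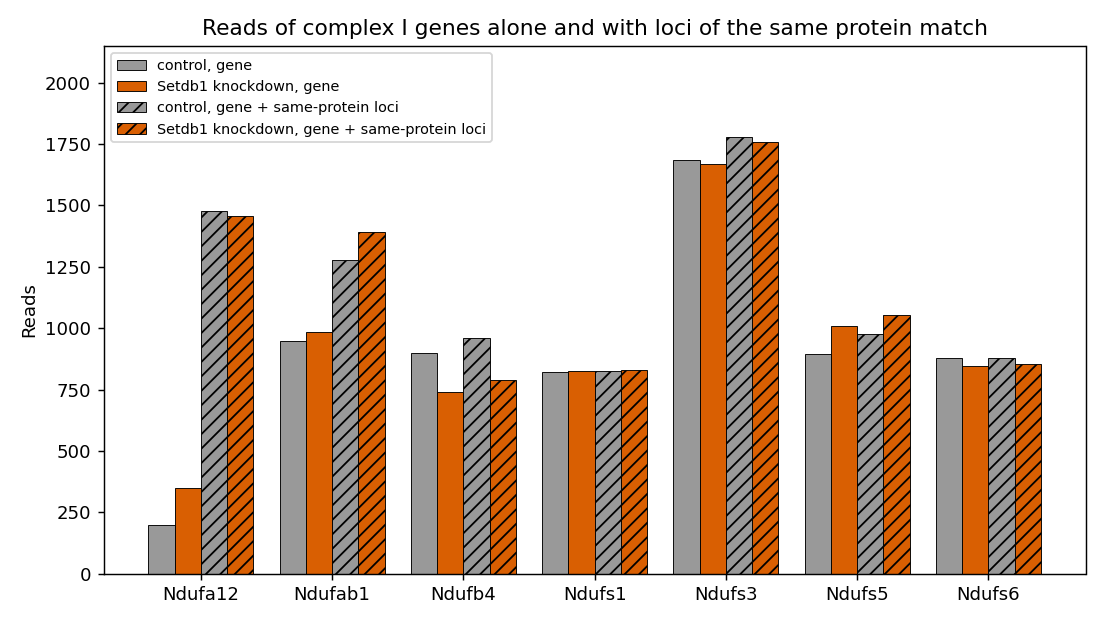
Reads (linear axis) of the members for which loci of the same protein match held at least 10 reads, with the empty vector (grey) and the Setdb1 hairpin (orange), for the gene alone (plain bars) and with those loci added (hatched bars). Ndufa12 goes from 198 and 351 reads alone to 1476 and 1456 with them.

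For the other members with copies the added reads changed little. Ndufab1 went from a read ratio of 1.01 to 1.05 with Gm44986, an overlapping locus of 11 and 2 reads, and its copies Gm4459 and Ndufab1-ps. The copies differ from its coding sequence at 1 of 468 and 2 of 465 aligned bases. Ndufs5 went from 1.09 to 1.04 with BC002163. Ndufb4 stayed at 0.795 and 0.796 with Ndufb4c, a copy identical over all 387 coding bases, and Ndufs3 at 0.958 and 0.957 with Gm12251. Overlap with another gene with reads concerned 17 members. Overlapping genes that differed in the member's direction included those of Ndufb11 (Rbm10, 1752 and 2234 reads) and Ndufa2 (Tmco6, 305 and 527 reads). Ndufs6, with 877 and 845 reads of its own, overlaps Mrpl36, which was also lower (792 and 476 reads). The same held for Ndufb5 (Mrpl47, 81 and 44 reads), Ndufb6 (Smim27, 27 and 15 reads) and Ndufaf2 (Smim15, 154 and 151 reads). Overlapping genes that differed in the other direction included those of Ndufa11 (Vmac, 494 and 347 reads) and Ndufa3 (Tfpt, 450 and 392 reads). Another was that of Ndufa13 (Yjefn3 on the same strand, 316 and 228 reads). In the 23 members with neither an overlap nor such a copy, a comparison added after the values were seen, the median log2 ratio was 0.19. Ndufb1-ps, listed in the table as a noncoding locus and so outside the rule, was at 11.9 FPKM with the empty vector and 13.5 FPKM with the Setdb1 hairpin.

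Levels differed far more between members than between libraries. With the empty vector Ndufb2 was at 1.42 FPKM and Ndufa8 at 131 FPKM, and with the Setdb1 hairpin levels ran from 1.38 FPKM for Ndufaf4 to 165 FPKM for Ndufb11. Assembly factors were the lowest group, with a median of 5.82 FPKM with the empty vector beside 51.3 FPKM for the 36 subunits, and the 8 factors ran from 3.22 to 15.4 FPKM there. By mean FPKM, Ndufa8 and Ndufb11 were among the highest members, and Ndufb2, Ndufaf4 and Ndufaf2 were the lowest. FPKM divides by the length of the whole gene model, and at the median this length was 1.46 times that of the principal coding transcript in GENCODE M21. For Ndufb7 it was 7.26 times, a model of 4522 bases beside a transcript of 623, so the order of levels also depends on the models. Across the 44 members the Spearman correlation of mean FPKM with model length was -0.58, and FPKM itself contains that length. The log2 ratio had a Spearman correlation of -0.12 with model length over the members and of -0.0996 over all 10671 genes.

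**Figure D3:**
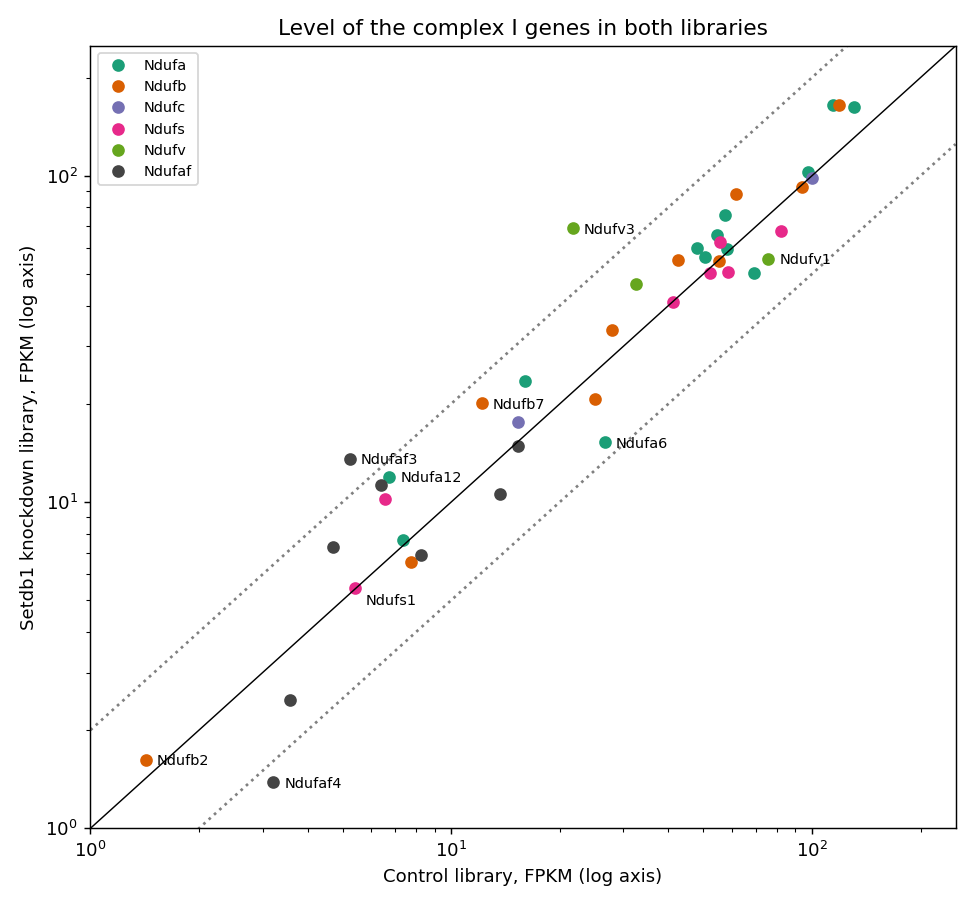
FPKM of the complex I genes, with 1 gene not shown, with the empty vector (x) and the Setdb1 hairpin (y), both on log axes; points are genes coloured by name group, the solid line marks equal levels and the dotted lines 2-fold. Subunits fill the upper range and assembly factors lie at or below 15.4 FPKM; Ndufv3 and Ndufaf3 are above the upper dotted line, and Ndufaf4 is below the lower one, as no pseudocount enters here.

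The 44 members lie on 17 chromosomes. On chromosome 17, all 6 members were higher with the Setdb1 hairpin: Ndufv3 (1.62), Ndufaf7 (0.54), Ndufv2 (0.51), Ndufb10 (0.51), Ndufa11 (0.40) and Ndufa7 (0.07), as log2 ratios with a median of 0.51. The other 544 genes at the filter on this chromosome had a median of 0.06, and 53.1% of them were higher. After correction for gene length 5 of the 6 were higher. The nearest members in the genome are Ndufs8 and Ndufv1 on chromosome 19, which lie 94.8 kb apart and had log2 ratios of -0.27 and -0.44. The other 380 genes there had a median of -0.05. This grouping by chromosome was looked at after the values were known and was not tested.

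**Figure D4:**
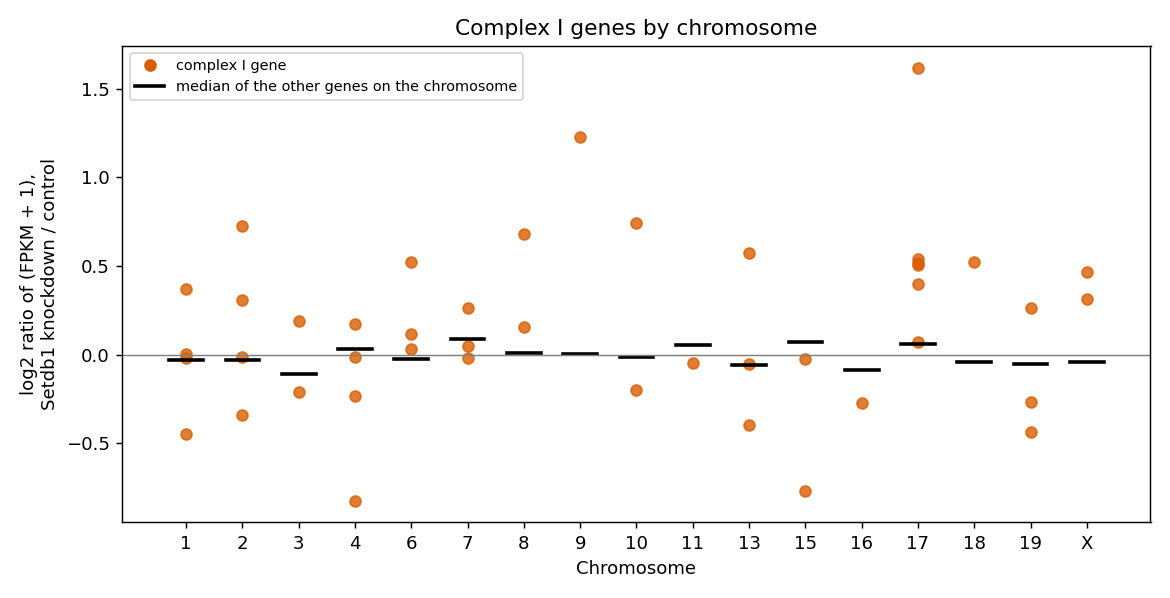
Log2 ratio of (FPKM + 1) of each complex I gene (orange points) by chromosome; black lines are medians of the other genes of that chromosome at 1 FPKM or more. All 6 members of chromosome 17 lie above 0, between 0.07 and 1.62, while its other genes have a median of 0.06.

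The membrane arm also needs 7 subunits encoded by mitochondrial DNA, all of which were lower with the hairpin, with a median log2 ratio of -1.17; mt-Nd5 was at -0.97 and mt-Nd1 at -1.65, and mt-Nd4l, at -1.77, rests on 27 and 4 reads and was at -0.76 with loci of the same protein added. Their summed reads went from 48609 to 19968, a read ratio of 0.397 (0.391 to 0.404), beside 1.05 for the 36 nuclear subunits. Ndufaf4, the lowest nuclear member, had a read ratio of 0.416 (0.326 to 0.527). That interval holds the ratios of mt-Nd5 (0.491), mt-Nd3 (0.443), mt-Nd6 (0.431) and mt-Nd4 (0.427), so counting error leaves their order with Ndufaf4 open. The ratio of mt-Nd3 rests on 83 and 38 reads.

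For the other respiratory complexes only subunits encoded in the nucleus were listed, so subunits of complexes III to V encoded by mitochondrial DNA are not covered. The median was 0.14 for the 36 complex I subunits and 0.09 for all 44 members. The listed subunits of the other complexes had medians close to these: 0.14 for 4 of complex II, 0.14 for 9 of complex III, 0.21 for 11 of complex IV and 0.16 for 17 of complex V. Their summed reads, which the abundant genes weigh most, had read ratios of 1.04 (1.02 to 1.07) for complex II, 0.950 (0.934 to 0.967) for III, 0.971 (0.958 to 0.984) for IV and 0.942 (0.934 to 0.950) for V, beside 1.05 for the complex I genes. In complex III, Uqcrb, a small subunit, was at least 2-fold higher (262 and 571 reads, log2 ratio 1.08), and Uqcrq was lowest (-0.84). Elsewhere the ends were Sdhd (0.19) and Sdha (-0.02), Cox6c (0.43) and Cox8a (-0.21), and Atp5k (0.67) and Atp5g1 (-0.65). The 13 complex I assembly factors without Nduf names that reached the filter ran from -0.68 for Tmem126a to 0.37 for Tmem126b, with 5 higher and a median of -0.04. Assembly factors of complexes II to V, 25 at the filter, had a median of -0.03 and ran from -0.69 for Cox10 to 0.87 for Uqcc2. Of 8 regulators of respiratory genes at the filter, Esrra, a nuclear receptor of energy metabolism, was highest at 1.02 and Pprc1, a coactivator, lowest at -0.85. The 16 genes listed for mitochondrial content had a median of -0.15, from 0.71 for Vdac1 to -1.43 for the chaperonin Hspd1. No test of a difference between these lists is possible with 1 library per group.

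**Figure D5:**
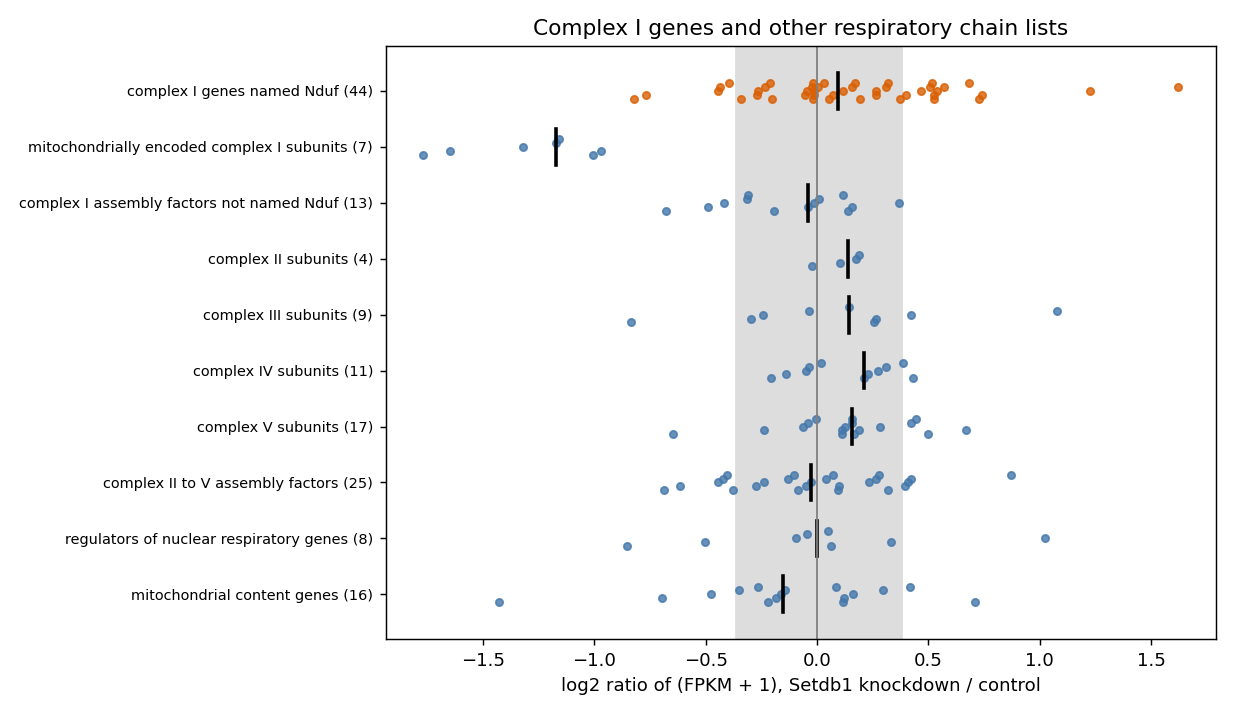
Log2 ratio of (FPKM + 1), knockdown over control, of each gene at 1 FPKM or more, by list (number of genes in brackets); black bars are list medians, the grey band spans the quartiles of all 10671 genes and the grey line their median. The mitochondrially encoded subunits lie between -1.77 and -0.97 and the nuclear complex I genes in orange have a median of 0.09; on this scale low genes such as Ndufaf4 (-0.82) are drawn closer to 0 than their read ratios.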

How the data were processed

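Per the labels, total RNA (TRIzol) went into NEBNext Ultra RNA libraries. The submitters' processing notes name CASAVA, HISAT2 and featureCounts 1.5.0-p3 and the build GRCm38; the strand setting and the treatment of reads with several matches are not given in the sources used here. The authors deposited FPKM values with a gene model length per locus. Multiplied by length, 100% of the nonzero values of each library gave whole reads (within 0.001 reads), on a common depth of 18731117 reads for both libraries, so FPKM ratios still carry the 1.03 ratio of the totals. Columns were matched to samples by library name. Of 54409 gene IDs found in GENCODE M21, 98.3% had the same position, as did 40 of the 44 members. Gene coordinates are those of the deposited table, and coordinates of promoter stretches are RefSeq's.

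Log2 ratios used a pseudocount of 1, counts a filter of 1 FPKM in at least 1 library, and calls a 2-fold difference. With 1 library per group no test between conditions was made. Named genes were Setdb1, the 2 highest and 2 lowest ratios of each name group, the core subunits, members past 2-fold, the 3 highest and 3 lowest levels, and the ends of each list; other members are given by value. The members, lists and modules were chosen with earlier results of these data known. In the lists, 1 gene, Coa1, was not found in the table. The single values of 1 member and 1 marker are not reported here; counts and sums include them. Calculations were tested on simulated data. The work was done in Python 3.11.15 (tables in pandas 2.3.3 and numpy 2.4.6, intervals in scipy 1.17.1, lowess in statsmodels 0.14.6, figures in matplotlib 3.10.9).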

Additional observations from a re-analysis of the deposited data

How the results depend on the processing

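Alternatives were a pseudocount of 0.1, 3 other scalings (upper quartile, own read totals, median of ratios), a correction for gene length (lowess, span 0.3), sums over loci of the same protein, no filter or a filter at 5 FPKM, means, and a 1.5-fold threshold; the median without members that overlap or have copies (0.19) and that of read ratios without a pseudocount (0.07) were added after seeing the data. Some alternatives could change little. All 44 members pass the main filter, so leaving it out keeps the same members, and median of ratios scaling put the median of all genes at 0.0013. Of 154 alternative values of the list medians and member counts, these included, 148 stayed within the counting error of a typical member or within 1.5 times the count, and 6 moved. With the length correction the medians were -1.29 for the mitochondrially encoded subunits, 0.034 for complex II and 0.11 for complex IV. With the filter at 5 FPKM they were 0.25 for Ndufaf genes and -0.31 for complex I assembly factors without Nduf names, since fewer genes are left. At 1.5-fold, 7 members were counted in place of 2. Except for the filter and the threshold, the cause was not tested. The median of the 44 members stayed between 0.05 and 0.19, and 16 to 20 members were lower. Under the 3 other scalings the lowest median of all genes was -0.0456 (upper quartile), beside -0.00039 in the main setting. Of 306 values of single genes, 25 moved, 17 of them with the length correction, and Ndufa12 and Ndufs1 changed sign as given above. No paired analysis was possible because the study has a single library per condition, which also leaves none to omit. Depth limits the low members: Ndufaf4 had 101 reads in the knockdown library, and the counting interval of 14 members included a read ratio of 1.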
